A study of Homo sapiens with 42 samples.

Results

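A set of 10 genes of plasma membrane amino acid transport was followed across every group of an RNA sequencing study of ENL (MLLT1) in human leukaemia cells. They were chosen by name, as a list of 10 GENCODE symbols among the 58721 gene identifiers of each of the 4 deposited count tables: SLC7A5, SLC3A2, SLC7A11, SLC7A1, SLC1A5, SLC1A4, SLC38A1, SLC38A2, SLC43A1 and SLC6A9. Earlier results of these data were known at the choice, among them that SLC7A5 falls and SLC7A11 rises with MS41 in MV4;11. The p-values of both genes and the counts of the set with MS41 in MV4;11 are therefore descriptive and not independent support. All 10 were found in each table, and all 10 passed the filter on low counts in each fit. The 42 libraries fall into 15 groups. MV4;11 cells, a myeloid leukaemia line with an MLL fusion and labelled WT in genotype, were treated in culture with DMSO, MS41, MS41N or PFI-6, each compound at 100 nM, for 6 h or 24 h, and each compound and time has 3 libraries. SEMK2 cells, a leukaemia line with an MLL fusion and also labelled WT, were treated with DMSO or 100 nM MS41, with 3 libraries each and no time given for these samples. MV4;11 cells carrying a control guide (Negsg) or either of a pair of guides against ENL (ENLsg1, ENLsg2; labelled ENL KO) gave 2 libraries per guide, and the labels do not say whether they are clones or pools. MV4;11 cells labelled as in vivo, from animals given vehicle or MS41, gave 3 libraries each; the series' design text names a xenograft mouse model, and the dose, the time and the strain and age of the animals are not given in the sources used here. MS41 is the degrader of ENL named in the study's title, PFI-6 inhibits the histone-reading YEATS domain of ENL, and MS41N is given in the labels without a description. The labels do not say that libraries of a group came from separate cultures or animals, so p-values measure the spread between these libraries, which may be technical.

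Amino acid transporters set how fast a cell can take up the building blocks of protein, nucleotides and glutathione. SLC3A2 (CD98, 4F2hc) is a glycoprotein heavy chain that carries light chains to the membrane. Its light chain SLC7A5 (LAT1) brings in leucine and other large neutral amino acids in exchange for glutamine, and its light chain SLC7A11 (xCT) brings in cystine in exchange for glutamate. SLC1A5 (ASCT2) and SLC1A4 (ASCT1) exchange small neutral amino acids with sodium, and SLC38A1 (SNAT1) and SLC38A2 (SNAT2) load the cell with glutamine and alanine. SLC7A1 (CAT1) carries arginine and lysine, SLC43A1 (LAT3) carries leucine without a heavy chain, and SLC6A9 (GLYT1) carries glycine. In leukaemia cells leucine and glutamine entry feeds the growth kinase mTORC1, and cystine entry feeds glutathione.

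The genes lie on 8 chromosomes of GRCh38 in GENCODE release 29. SLC7A5 is at chr16:87830023-87869488 on the minus strand and SLC3A2 at chr11:62856102-62888875 on the plus strand. SLC7A11 is at chr4:138164097-138242349, SLC7A1 at chr13:29509410-29595688 and SLC1A5 at chr19:46774883-46788594, all on the minus strand. SLC1A4 is at chr2:64988477-65023865 on the plus strand. SLC38A1 at chr12:46183063-46270017, SLC38A2 at chr12:46358189-46372867, SLC43A1 at chr11:57484534-57515786 and SLC6A9 at chr1:43991500-44031467 are on the minus strand. Exons of 4 of them overlap exons of a gene on the other strand, by 116 bases for SLC7A5 (AC126696.2), 276 for SLC7A11 (SLC7A11-AS1), 780 for SLC1A5 (AC008622.2) and 331 for SLC6A9 (CCDC24). The strand setting of the counting is not given in the sources used here, so reads in these overlaps cannot be assigned.

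RefSeq promoter windows (GRCh38.p14), the 250 bases before an annotated start, were found for 9 of the 10 genes, 16 windows in all; the other gene is SLC7A11. They were searched on both strands for CACGTG (the E-box bound by MYC), TGATGNAAN (an element bound by ATF4 with CEBP factors) and TGACNNNGC (the element bound by NRF2). The windows of 3 genes are shown because SLC7A5, SLC7A1 and SLC1A5 moved together in the comparisons that follow and because these windows end before the start of the gene in GENCODE as well. Capitals mark the letters of a searched motif.
SLC7A5, chr16:87869508-87869757, minus strand: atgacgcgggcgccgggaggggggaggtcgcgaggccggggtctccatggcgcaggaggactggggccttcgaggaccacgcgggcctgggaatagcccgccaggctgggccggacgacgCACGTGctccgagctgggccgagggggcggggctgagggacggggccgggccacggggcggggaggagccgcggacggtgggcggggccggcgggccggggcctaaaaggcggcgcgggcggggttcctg
SLC7A1, chr13:29595689-29595938, minus strand: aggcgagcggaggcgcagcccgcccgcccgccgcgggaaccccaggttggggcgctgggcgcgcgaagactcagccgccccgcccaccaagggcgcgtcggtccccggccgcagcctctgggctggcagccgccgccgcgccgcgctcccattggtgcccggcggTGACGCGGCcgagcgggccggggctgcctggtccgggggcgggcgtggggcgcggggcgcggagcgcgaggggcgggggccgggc
SLC1A5, chr19:46788595-46788844, minus strand: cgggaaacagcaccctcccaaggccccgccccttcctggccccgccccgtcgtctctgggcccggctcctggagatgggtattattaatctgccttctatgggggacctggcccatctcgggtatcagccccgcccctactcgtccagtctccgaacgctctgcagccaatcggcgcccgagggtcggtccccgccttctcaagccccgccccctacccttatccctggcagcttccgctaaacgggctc

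The SLC7A5 window held CACGTG, the SLC7A1 window held TGACNNNGC, and the SLC1A5 window held none of the searched letters. Over all windows of the set, CACGTG was found for 3 genes (SLC7A5, SLC43A1 and an inner start of SLC1A5), TGATGNAAN for 1 (another inner start of SLC1A5) and TGACNNNGC for 3 (SLC7A1 and inner starts of SLC3A2 and SLC1A5). No match of one motif overlapped a match of another in these windows. Counted per window, CACGTG was in 3, TGATGNAAN in 1 and TGACNNNGC in 3 of the 16 windows of the set. Of 35116 RefSeq windows of the same length, 6.34% held CACGTG, 3.13% held TGATGNAAN and 10.9% held TGACNNNGC.

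Libraries held 102.3 to 156.5 M counts for MV4;11 with compounds, 155.9 to 230.6 M for SEMK2, 77.2 to 87.8 M for the guides and 99.5 to 126.7 M in vivo, where M stands for 1000000. Levels are in CPM, the counts per 1000000 after TMM scaling, and between genes in CPM per kilobase (kb) of exon. Of 8 myeloid markers, 7 reached a mean of 1 CPM in every MV4;11 compound group (CEBPE was below it) and all 8 in the guide and in vivo groups, whereas the 8 B lineage markers summed to between 2.55 and 4.87 CPM in MV4;11, with DNTT at or near 0. In SEMK2 7 of the 8 B lineage markers were above 1 CPM, with a summed level of 1595 to 1691 CPM and DNTT near 0, and 4 of the 8 myeloid markers were above it, among them FLT3 at a mean of 1966 CPM in DMSO, while ELANE and AZU1 were at or near 0. ENL transcript (MLLT1) was 249.8 and 223 CPM under the control guide, 181 and 190.1 CPM under guide 1 and 123 and 127 CPM under guide 2. It fell by 0.35 on the log2 scale with guide 1 (adjusted p = 0.0122) and by 0.92 with guide 2 (adjusted p = 1.80e-05); a guide can disrupt the protein without removing the transcript, so this checks the labels only in part.

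In MV4;11 culture the transporters differed widely in level per kb. After 24 h in DMSO, SLC1A5 stood at 63.9 ± 1.06 CPM per kb (SD, n = 3), SLC38A2 at 55.1 ± 1.58, SLC7A5 at 45.0 ± 1.09 and SLC3A2 at 40.6 ± 0.293. SLC7A1 (33.2 ± 0.295) and SLC1A4 (33.1 ± 0.224) followed with levels that did not differ beyond their spread, and SLC43A1 was at 18.3 ± 0.277. SLC38A1 at 4.59 ± 0.0889 and SLC7A11 at 0.473 ± 0.0540 were low, and SLC6A9 at 0.146 ± 0.00218 CPM per kb rested on 74 to 86 reads per library.

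**Figure D1:**
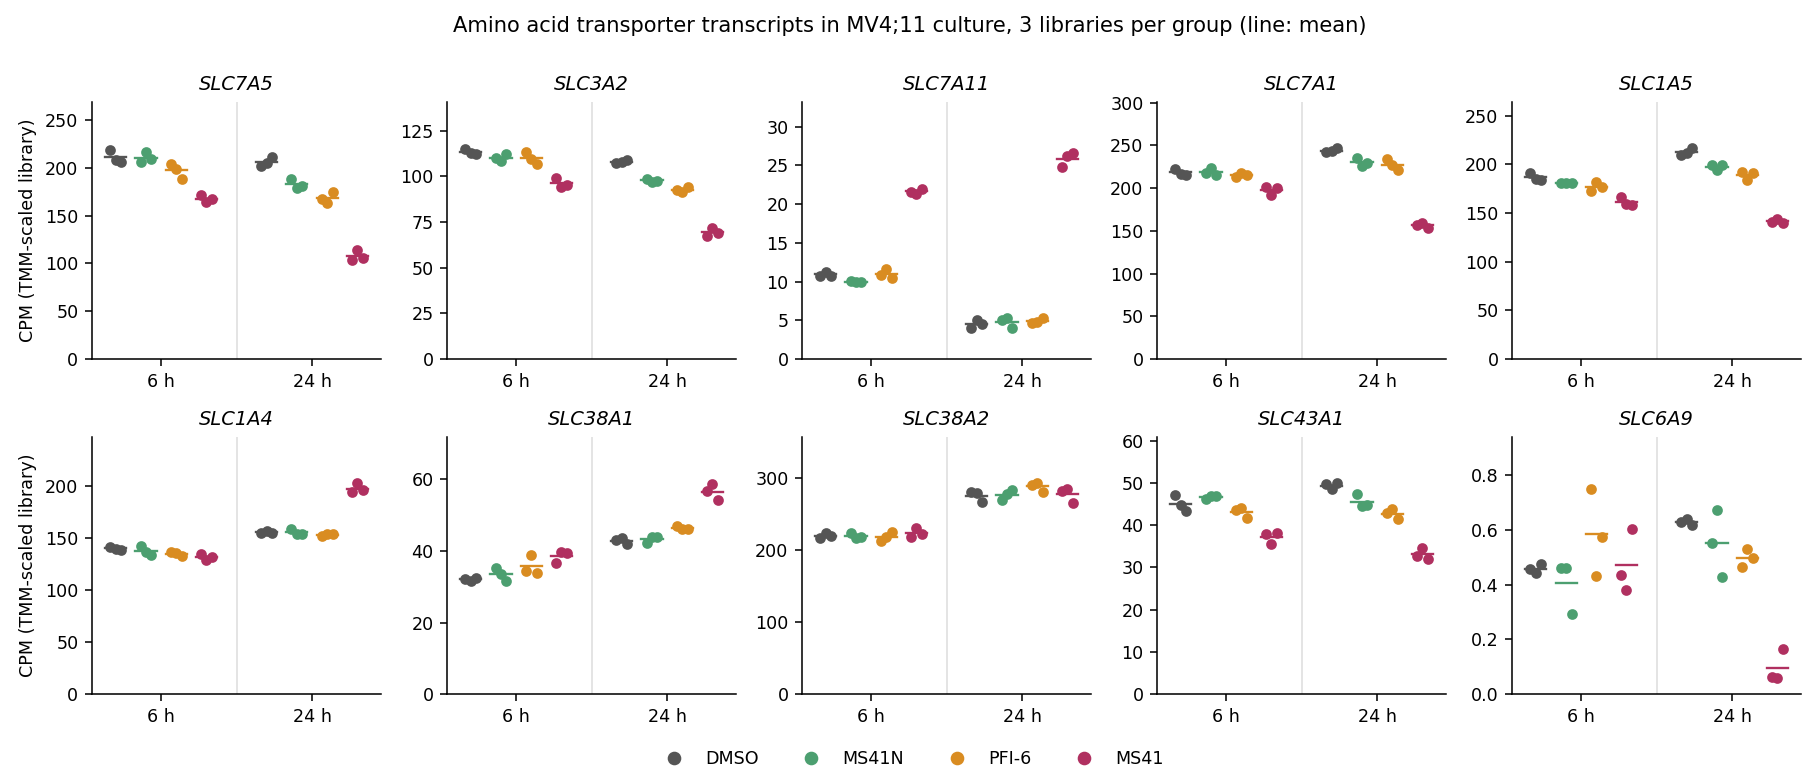
Level of each of the 10 transporters (CPM of the TMM-scaled library, linear axis from 0) in MV4;11 culture at 6 h and 24 h, with 1 point per library and a line at the mean of 3 libraries. In the SLC7A5 panel the MS41 libraries at 24 h sit between 104 and 114 CPM, below all other groups, and in the SLC7A11 panel they sit between 24.8 and 26.6 CPM, above all others.

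MS41 lowered the transcripts of the leucine transporter and its heavy chain and raised that of the cystine light chain within 6 h. Most of the set had moved by 24 h. At 6 h 2 of the 10 transporters rose and 6 fell, against 12.2% of all 22711 genes tested that rose and 13.8% that fell. At 24 h 3 rose and 6 fell, against 21.4% and 22.9% of all genes. A gene is called when its adjusted p is below 0.05, after edgeR's quasi-likelihood test with Benjamini-Hochberg adjustment over all genes tested. The median log2 fold change of the set was -0.11 at 6 h and -0.58 at 24 h, beside medians over all genes of 0.02 at both times.

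SLC7A5, the LAT1 light chain, was 219, 209 and 206 CPM after 6 h in DMSO and 172, 164 and 167 CPM in MS41. After 24 h it was 202, 205 and 212 CPM in DMSO and 104, 114 and 106 CPM in MS41. The groups did not overlap at either time, and the 24 h libraries in MS41 were the lowest of all 24. The change was -0.33 on the log2 scale at 6 h (95% interval -0.40 to -0.27, adjusted p = 1.37e-11) and -0.93 at 24 h (SE 0.0325, adjusted p = 2.02e-27), that is, 0.523 of the DMSO mean at 24 h. SLC7A5 has pseudogene copies among which reads could be split, but SLC7A5P1 stayed at or below 2.1 CPM and the antisense AC126696.2 at or below 0.120 CPM in every library. SLC7A5P2 was at 0 in all of them.

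SLC3A2, the heavy chain, was 115, 113 and 112 CPM after 6 h in DMSO and 98.9, 94.4 and 95.3 CPM in MS41. After 24 h it was 107, 108 and 109 CPM in DMSO and 67.3, 71.7 and 69.1 CPM in MS41, again without overlap. It fell by 0.24 at 6 h (adjusted p = 5.66e-09) and by 0.64 at 24 h (95% interval -0.69 to -0.58, adjusted p = 2.96e-23). Transcripts of both partners of the LAT1 dimer were therefore lower, that of the light chain by more. The ratio of SLC7A5 to SLC3A2 per kb was 1.11 ± 0.0189 in DMSO and 0.900 ± 0.0169 in MS41 at 24 h (SD, n = 3), with ranges of 1.09 to 1.13 and 0.887 to 0.919.

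SLC7A11, the cystine light chain that shares the SLC3A2 heavy chain, moved the other way. It was 10.7, 11.3 and 10.8 CPM after 6 h in DMSO and 21.6, 21.3 and 22.0 CPM in MS41, and after 24 h 4.04, 5.08 and 4.56 CPM in DMSO and 24.8, 26.2 and 26.6 CPM in MS41. The groups were far apart at both times, and the wider gap at 24 h came with a lower level in DMSO as well as a higher one in MS41. The change was 0.99 at 6 h (95% interval 0.85 to 1.13, adjusted p = 1.05e-15) and 2.50 at 24 h (2.35 to 2.65, adjusted p = 8.43e-30), or 1.98 and 5.67 times the DMSO mean. Its antisense neighbour SLC7A11-AS1 stayed at or below 0.313 CPM in every library. Per kb SLC7A11 remained the scarcer transcript, at 0.0105 ± 0.00118 of SLC7A5 in DMSO and 0.114 ± 0.00497 in MS41 at 24 h.

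Of the sodium-coupled exchangers, SLC1A5, which brings glutamine into many tumour cells, was 191, 185 and 184 CPM after 6 h in DMSO and 167, 159 and 158 CPM in MS41. After 24 h it was 209.8, 212 and 217 CPM in DMSO and 141, 144 and 139 CPM in MS41. It fell by 0.21 at 6 h (adjusted p = 9.64e-09) and by 0.59 at 24 h (95% interval -0.64 to -0.54, adjusted p = 1.58e-23), with no overlap of groups. The antisense AC008622.2 stayed at or below 0.746 CPM. Its close relative SLC1A4, an alanine, serine and cysteine exchanger, was 142, 139.7 and 139 CPM after 6 h in DMSO and 135, 129 and 132 CPM in MS41. After 24 h it was 155, 157 and 155 CPM in DMSO and 194, 202 and 196 CPM in MS41. SLC1A4 thus fell by 0.08 at 6 h (adjusted p = 0.0116) and rose by 0.35 at 24 h (95% interval 0.29 to 0.40, adjusted p = 1.33e-15). The fall at 6 h was small and was not called without MS41 replicate 2 (-0.07, adjusted p = 0.0760), and with the total count as the only scale the 6 h means were 139 CPM in DMSO and 138 CPM in MS41.

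The system A carriers differed from each other. SLC38A1 was 32.3, 31.5 and 32.5 CPM after 6 h in DMSO and 36.6, 39.7 and 39.5 CPM in MS41, and after 24 h 43.1, 43.5 and 41.9 CPM in DMSO and 56.9, 58.6 and 54.2 CPM in MS41. It rose by 0.27 (adjusted p = 3.68e-06) and by 0.40 (95% interval 0.32 to 0.49, adjusted p = 4.89e-11), with groups apart at both times. SLC38A2, the carrier that is classically induced when amino acids are short, was 281, 279.9 and 267 CPM in DMSO and 283, 284 and 266 CPM in MS41 at 24 h. Its groups overlapped, and the difference was 0.02 at 6 h (95% interval -0.03 to 0.08, adjusted p = 0.600) and 0.01 at 24 h (-0.05 to 0.07, adjusted p = 0.796). With 3 libraries per group a change of SLC38A2 beyond 0.08 on the log2 scale in either direction lay outside these intervals.

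Of the remaining carriers, SLC7A1, which brings in arginine, was 223, 217 and 216 CPM after 6 h in DMSO and 202, 192 and 201 CPM in MS41. After 24 h it was 242, 243 and 247 CPM in DMSO and 157, 159 and 153 CPM in MS41. It fell by 0.14 (adjusted p = 1.98e-05) and by 0.64 (95% interval -0.69 to -0.59, adjusted p = 3.33e-25), with no overlap. SLC43A1, the leucine carrier that needs no heavy chain, was 49.8, 48.5 and 49.9 CPM in DMSO and 32.7, 34.7 and 31.9 CPM in MS41 at 24 h, and fell by 0.28 at 6 h (adjusted p = 2.08e-07) and by 0.58 at 24 h (adjusted p = 4.41e-17).

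SLC6A9, the glycine carrier, was counted with 74, 77 and 86 reads in DMSO and 8, 8 and 20 reads in MS41 at 24 h, that is, 0.631, 0.639 and 0.620 CPM against 0.0612, 0.0588 and 0.166 CPM. It fell by 2.74 at 24 h (95% interval -3.41 to -2.06, adjusted p = 1.95e-09), whereas at 6 h the groups overlapped and the difference was 0.06 (-0.51 to 0.63, adjusted p = 0.922). This value is uncertain because 331 exon bases are shared with CCDC24 on the other strand, which was counted at 0.519 to 0.750 CPM in DMSO and 0.314 to 0.398 CPM in MS41 at 24 h.

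**Figure D2:**
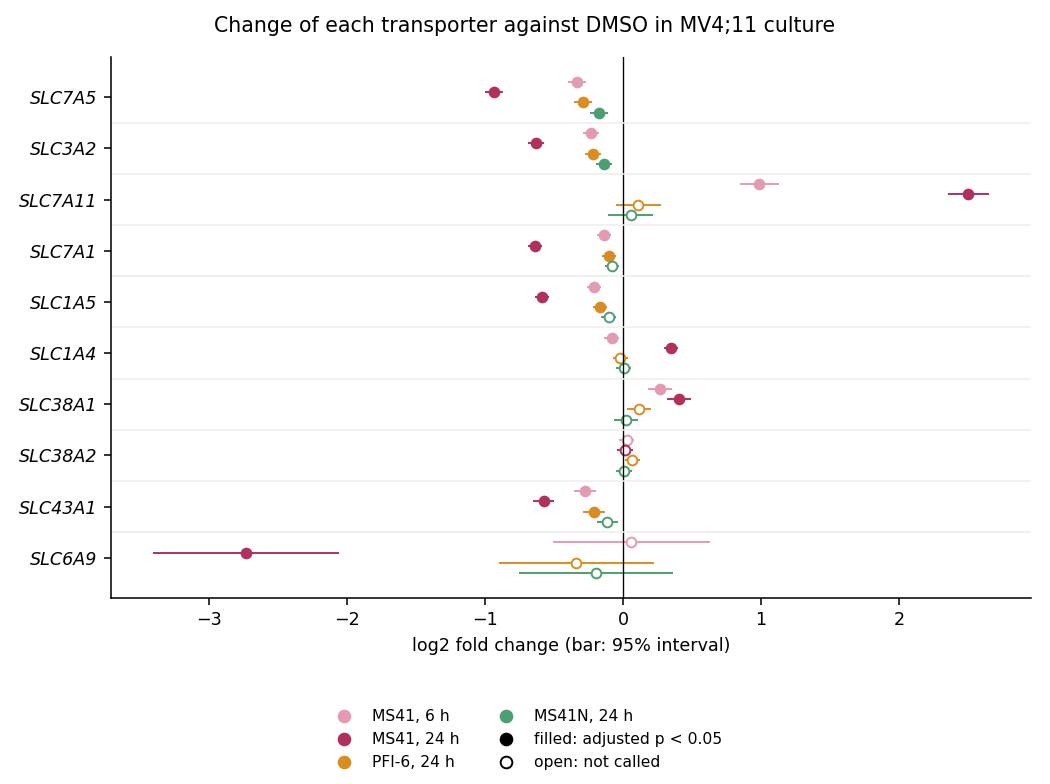
Log2 fold change of each transporter against DMSO of the same time in MV4;11 culture, with 95% intervals, for MS41 at 6 h and 24 h, PFI-6 at 24 h and MS41N at 24 h; filled points passed an adjusted p of 0.05. MS41 at 24 h moves SLC7A5 to -0.93 and SLC7A11 to 2.50, and the PFI-6 and MS41N points lie between -0.34 and 0.12.

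Library composition and cell state moved in the same libraries. The transporters that fell are rich in G and C, with 52.7% to 61.3% GC in their longest transcript, and those that rose are poorer, with 35.4% for SLC7A11, 41.3% for SLC38A1 and 46.5% for SLC1A4. After a GC trend was removed from each library, MS41 at 24 h gave -0.87 for SLC7A5, -0.63 for SLC3A2, 2.42 for SLC7A11, -0.67 for SLC7A1, -0.52 for SLC1A5, 0.30 for SLC1A4, 0.36 for SLC38A1, -0.57 for SLC43A1 and -2.70 for SLC6A9, and all 9 stayed called. The summed level of the 8 myeloid markers was 2401 to 2438 CPM in DMSO and 3406 to 3605 CPM in MS41 at 24 h, most of it LYZ. B lineage markers stayed at or below 3.76 CPM. The myeloid markers did not move together. From DMSO to MS41 at 24 h mean LYZ went from 1464 to 2642 CPM and CSF1R from 25.5 to 90.4 CPM. MPO, CD33 and CEBPE were also higher. FLT3 went from 563 to 419 CPM and ELANE from 130 to 101 CPM, while AZU1 overlapped. At 6 h the sum was lower in MS41 (1122 to 1126 CPM) than in DMSO (1337 to 1355 CPM). The part of these marker changes in the transporter changes was not tested. In bulk RNA, fewer cells of a type and less RNA per cell cannot be told apart.

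The effect of MS41 was tested for a difference between 24 h and 6 h in an interaction term. It differed for 8 of the 10 transporters, higher at 24 h for 2 and lower for 6, against 11.9% and 14.5% of all genes. SLC7A11 gained 1.52 (95% interval 1.31 to 1.72, adjusted p = 1.77e-16) and SLC1A4 gained 0.43 (adjusted p = 4.27e-13). For SLC7A5 the difference was -0.60 (95% interval -0.69 to -0.51, adjusted p = 1.13e-14), with -0.50 for SLC7A1, -0.40 for SLC3A2, -0.38 for SLC1A5, -0.30 for SLC43A1 and -2.79 for SLC6A9. For SLC38A1 (0.13, adjusted p = 0.104) and SLC38A2 (-0.01, adjusted p = 0.867) a difference between times was not detected.

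The transporters also drifted in DMSO alone between 6 h and 24 h, with 6 higher and 1 lower at 24 h, against 16.7% and 13.5% of all genes. SLC7A11 fell by 1.26 (95% interval -1.41 to -1.11, adjusted p = 4.78e-18), from a mean of 10.9 to 4.56 CPM. SLC38A1 rose by 0.42 (adjusted p = 9.14e-11) and SLC38A2 by 0.32 (adjusted p = 5.37e-13), and SLC1A5 (0.19), SLC7A1 (0.16), SLC1A4 (0.15) and SLC43A1 (0.13) rose less. SLC43A1 was not called without DMSO replicate 3 of 6 h (0.10, adjusted p = 0.0716). SLC7A5 (-0.03, adjusted p = 0.482) and SLC3A2 (-0.07, adjusted p = 0.0520) were not called in this comparison, and SLC3A2 was called lower with DESeq2 (-0.08, adjusted p = 0.0144). The 24 h and 6 h contrasts of each compound were made against the DMSO libraries of the same time.

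PFI-6, the inhibitor, lowered transcripts of the LAT1 pair and 3 further carriers at 24 h, each by 0.29 or less. At 6 h 1 transporter was called higher, against 0.66% of all genes, and none lower: SLC38A1 was 34.5, 38.8 and 33.7 CPM (0.15, adjusted p = 0.0497), and the call was lost with any 1 of 5 libraries left out, furthest without PFI-6 replicate 2 (0.08, adjusted p = 0.492). At 24 h 5 fell, against 6.78% of all genes. SLC7A5 was 167, 163 and 175 CPM and fell by 0.29 (95% interval -0.36 to -0.23, adjusted p = 1.44e-07), SLC3A2 was 92.5, 91.1 and 94.2 CPM and fell by 0.22 (adjusted p = 2.26e-06), and SLC43A1 (-0.21), SLC1A5 (-0.17) and SLC7A1 (-0.10) fell by less. SLC7A1 was not called without PFI-6 replicate 3 (-0.08, adjusted p = 0.0529). PFI-6 left SLC7A11 at 4.68, 4.82 and 5.26 CPM, overlapping DMSO (0.11, 95% interval -0.05 to 0.27, adjusted p = 0.463). Once the GC trend was removed, SLC7A5 was at -0.15 (adjusted p = 0.000480) and SLC3A2 at -0.13 (adjusted p = 0.00585), whereas SLC43A1 (-0.11, adjusted p = 0.126), SLC7A1 (-0.06, adjusted p = 0.260) and SLC1A5 (-0.03, adjusted p = 0.782) were no longer called.

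With MS41N the edgeR test called transporters only at 24 h. At 6 h 0 of the 10 were called by edgeR, against 0.321% of all genes in either direction. At 24 h 2 were called lower, against 0.0176% of all genes: SLC7A5 at 188, 179 and 181 CPM (-0.17, adjusted p = 0.0175) and SLC3A2 at 98.4, 97.1 and 97.7 CPM (-0.14, adjusted p = 0.0389). Both groups lay below their DMSO libraries without overlap. Neither call held with the GC trend removed (-0.11, adjusted p = 0.163, and -0.10, adjusted p = 0.283), the SLC3A2 call was lost with any 1 library of either group left out, and the SLC7A5 call without DMSO replicate 3, MS41N replicate 2 or MS41N replicate 3 (adjusted p from 0.175 to 0.194). SLC1A5 (-0.11, adjusted p = 0.121), SLC43A1 (-0.11, adjusted p = 0.297) and SLC7A1 (-0.08, adjusted p = 0.232) also lay below DMSO without overlap at 24 h and were not called by edgeR. The share of all genes without overlap was not counted, so no effect of MS41N is read from the lack of overlap. The 3 compounds share their DMSO libraries at each time, so these contrasts are not independent of each other.

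MS41 was therefore also compared with the other compounds directly, at the same dose and time. Against MS41N 2 transporters were higher and 5 lower at 6 h (10.1% and 11.7% of all genes), and 3 higher and 6 lower at 24 h (20.5% and 21.9%). Against PFI-6 1 was higher and 5 lower at 6 h (9.35% and 10.1%), and 3 higher and 6 lower at 24 h (20.7% and 21.6%). At 24 h SLC7A5 was lower with MS41 than with MS41N by -0.76 (95% interval -0.83 to -0.69, adjusted p = 4.47e-24) and than with PFI-6 by -0.64 (-0.71 to -0.58, adjusted p = 2.16e-21). SLC7A11 was higher with MS41 by 2.45 against MS41N (2.30 to 2.60, adjusted p = 1.83e-29) and by 2.39 against PFI-6 (2.24 to 2.54, adjusted p = 4.19e-29). SLC38A2 was not called in either comparison at 24 h (0.00 against MS41N, interval -0.05 to 0.06, and -0.06 against PFI-6, interval -0.11 to 0.00).

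In MV4;11 cells carrying ENL guides, transcripts of the LAT1 pair, SLC1A5, SLC7A1 and SLC6A9 fell with each guide, and the cystine chain SLC7A11 was not called. With both guides against the control guide 6 of the 10 transporters fell and 0 rose, against 4.98% of all 17984 genes that fell. SLC7A5 was 499 and 510.5 CPM under the control guide, 249 and 284 CPM under guide 1 and 269 and 300.3 CPM under guide 2, and fell by 0.87 (95% interval -1.03 to -0.72, adjusted p = 1.23e-05). SLC3A2 was 215 and 219 CPM under the control guide and between 130.1 and 155 CPM under the ENL guides, and fell by 0.60 (adjusted p = 0.0002). No ENL guide library of either gene reached a control library.

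SLC1A5 was 373 and 376 CPM under the control guide and between 234 and 257 CPM under the ENL guides, and fell by 0.63 (95% interval -0.75 to -0.50, adjusted p = 4.13e-05). SLC7A1 was 249 and 259 CPM against 173 to 185 CPM, and fell by 0.50 (adjusted p = 0.000203). SLC6A9 was 5.19 and 4.24 CPM under the control guide, 1.17 and 1.52 CPM under guide 1 and 1.15 and 1.95 CPM under guide 2, and fell by 1.71 (adjusted p = 0.000339), with CCDC24 at 1.54 to 2.11 CPM in these libraries. The call of SLC38A2 was weak: its control libraries were 266 and 218 CPM and the ENL guide libraries 195 to 201 CPM, a change of -0.29 (adjusted p = 0.0300) that was -0.14 (adjusted p = 0.163) without control replicate 1 and was not called without any 1 ENL guide library (adjusted p from 0.0561 to 0.115).

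SLC7A11 was 9.50 and 3.73 CPM under the control guide, 1.82 and 1.86 CPM under guide 1 and 2.41 and 3.70 CPM under guide 2. All ENL guide libraries lay below the control libraries, but the lower control library was level with the highest ENL guide library. The change was -1.48 (95% interval -2.57 to -0.39, adjusted p = 0.106) and was not called; it was called with DESeq2 (adjusted p = 0.0273) and without control replicate 2 (-2.00, adjusted p = 1.95e-05). SLC1A4 (-0.17, adjusted p = 0.0822), SLC43A1 (-0.18, adjusted p = 0.0726) and SLC38A1 (-0.04, adjusted p = 0.848) were not called. MS41 and guide libraries come from separate tables, so the opposite signs of SLC7A11 in them were not tested against each other.

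Each guide alone gave the same picture for the strongest members. The guide 1 and guide 2 contrasts share their Negsg libraries, so neither counts as independent support for the other. Guide 1 lowered 5 transporters (3.14% of all genes fell) and guide 2 lowered 5 (1.76% of all genes fell); in both cases these were SLC7A5, SLC3A2, SLC7A1, SLC1A5 and SLC6A9. SLC7A5 changed by -0.92 with guide 1 (adjusted p = 3.94e-05) and by -0.83 with guide 2 (adjusted p = 0.000141). Between the guides 0 of 10 transporters were called, as were 0% of all genes by edgeR; DESeq2 called 1 gene, and 261 genes had an unadjusted p below 0.05. The 8 myeloid markers summed to 2437 to 2571 CPM under the control guide and 3290 to 3592 CPM under the ENL guides. The markers did not move together here either. Mean LYZ was 490 CPM under the control guide, 1509 CPM under guide 1 and 1328 CPM under guide 2, which made up most of the rise of the sum. MPO, CD33 and CSF1R were also higher without overlap. FLT3 was lower, at 729 CPM under the control guide, 567 CPM under guide 1 and 578 CPM under guide 2. ELANE and AZU1 overlapped the control guide under each ENL guide, and CEBPE did so under guide 1. The part of the markers in the transporter changes was not tested.

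**Figure D3:**
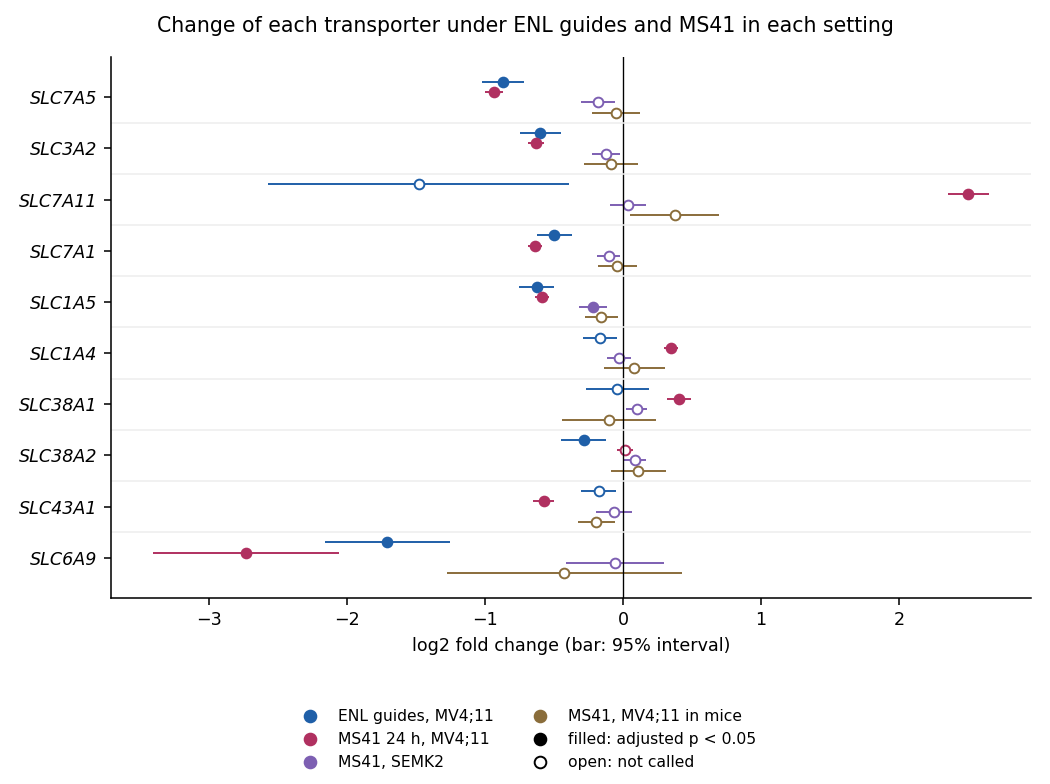
Log2 fold change of each transporter, with 95% intervals, for ENL guides against the control guide, MS41 at 24 h in MV4;11 culture, MS41 in SEMK2 and MS41 in vivo; filled points passed an adjusted p of 0.05 within their own table. SLC7A5 is at -0.87 with the guides and -0.93 with MS41 at 24 h, and at -0.18 in SEMK2 and -0.05 in vivo.

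In SEMK2 the transporters changed little with MS41. Only SLC1A5 was called lower (1 of 10, against 0.518% of all 21433 genes): it was 252, 256 and 229 CPM in DMSO and 218, 214 and 201 CPM in MS41, without overlap, a change of -0.22 (95% interval -0.32 to -0.12, adjusted p = 0.0372). SLC7A5 was 400.4, 414 and 348 CPM in DMSO and 340.2, 352 and 330.4 CPM in MS41, and the groups overlapped through DMSO replicate 3 (-0.18, 95% interval -0.31 to -0.06, adjusted p = 0.164). SLC7A5 was called lower with the GC trend removed (-0.12, adjusted p = 0.00912), with no filter (-0.18, adjusted p = 0.00302) and with the replicate block (-0.18, adjusted p = 0.0155). DMSO replicate 3 was the lowest DMSO library for SLC7A5, SLC3A2, SLC7A1, SLC1A5, SLC1A4 and SLC43A1. Without it 6 transporters were called, with SLC7A5 at -0.25 (adjusted p = 9.48e-06), SLC3A2 at -0.17 (adjusted p = 0.00220), SLC7A1 at -0.14 (adjusted p = 0.00134), SLC38A1 at 0.13 (adjusted p = 0.00114) and SLC38A2 at 0.12 (adjusted p = 0.00356). Leaving out any 1 of the other 5 libraries left 0 called, SLC1A5 among them (adjusted p from 0.102 to 0.295).

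SLC7A11 was not called in SEMK2, at 19.1, 19.3 and 21.6 CPM in DMSO and 20.7, 20.1 and 20.7 CPM in MS41 (0.03, 95% interval -0.10 to 0.17, adjusted p = 0.867). The set also had another profile in this line before treatment. SLC38A1 was 645, 629 and 678 CPM in SEMK2 DMSO, where it was 31.5 to 43.5 CPM in the DMSO libraries of MV4;11, and per kb it stood at 69.8 ± 2.68 CPM, near SLC1A5 at 73.7 ± 4.28. SLC1A4 (18.6 ± 0.707 CPM per kb) and SLC43A1 (7.27 ± 0.399) stood lower than in MV4;11 culture. The lines were counted in separate tables, so these levels are set side by side without a test.

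In vivo no transporter was called (0 of 10, against 0.0328% of all 21337 genes in either direction, 7 genes; 1623 genes had an unadjusted p below 0.05, and DESeq2 called 69). SLC7A5 was 69.9, 77.6 and 68.0 CPM with vehicle and 71.2, 63.6 and 73.0 CPM with MS41, which overlap (-0.05, 95% interval -0.22 to 0.12, adjusted p = 0.905). SLC1A5, SLC43A1 and SLC7A11 had groups without overlap and were not called. The share of all genes without overlap was not counted, so no effect of MS41 is read from this. SLC1A5 was 144, 146 and 145 CPM with vehicle and 131, 129 and 130.1 CPM with MS41 (-0.16, adjusted p = 0.586). SLC43A1 was 57.5, 56.3 and 56.5 against 48.9, 49.9 and 50.0 CPM (-0.19, adjusted p = 0.544). SLC7A11 was 6.00, 7.73 and 6.84 against 9.94, 7.79 and 8.92 CPM (0.37, 95% interval 0.05 to 0.69, adjusted p = 0.615). Same-numbered vehicle and MS41 libraries deviated in mirror image (correlations from -0.99 to -0.97), so the values were taken as adjusted before deposit, and the fit holds the number as a term with 2 residual degrees of freedom. Without the term SLC1A5 (adjusted p = 0.0339) and SLC43A1 (adjusted p = 0.0331) were called lower.

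The level of SLC7A5 relative to its heavy chain differed between settings. Per kb the ratio of SLC7A5 to SLC3A2 lay between 0.887 and 1.16 in all 24 compound libraries of MV4;11 culture, at 1.34 and 1.35 under the control guide, between 1.11 and 1.13 under the ENL guides and between 1.30 and 1.42 in SEMK2. In vivo it was 0.171 ± 0.0141 with vehicle and 0.176 ± 0.0129 with MS41 (SD, n = 3), with SLC3A2 at 91.7 ± 8.88 and SLC7A5 at 15.7 ± 1.11 CPM per kb under vehicle. Every in vivo library had less SLC7A5 than every culture library, whereas the in vivo SLC3A2 libraries overlapped those of the control guide. The labels name a SMART-Seq low-input kit for the in vivo samples and another protocol for the culture samples, so cell setting and library kit cannot be told apart here. Compound, guide and SEMK2 libraries were also counted separately, so their ratios are set side by side without a test. The mean ratio in MV4;11 DMSO was 1.08 at 6 h and 1.11 at 24 h, below both control guide libraries.

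**Figure D4:**
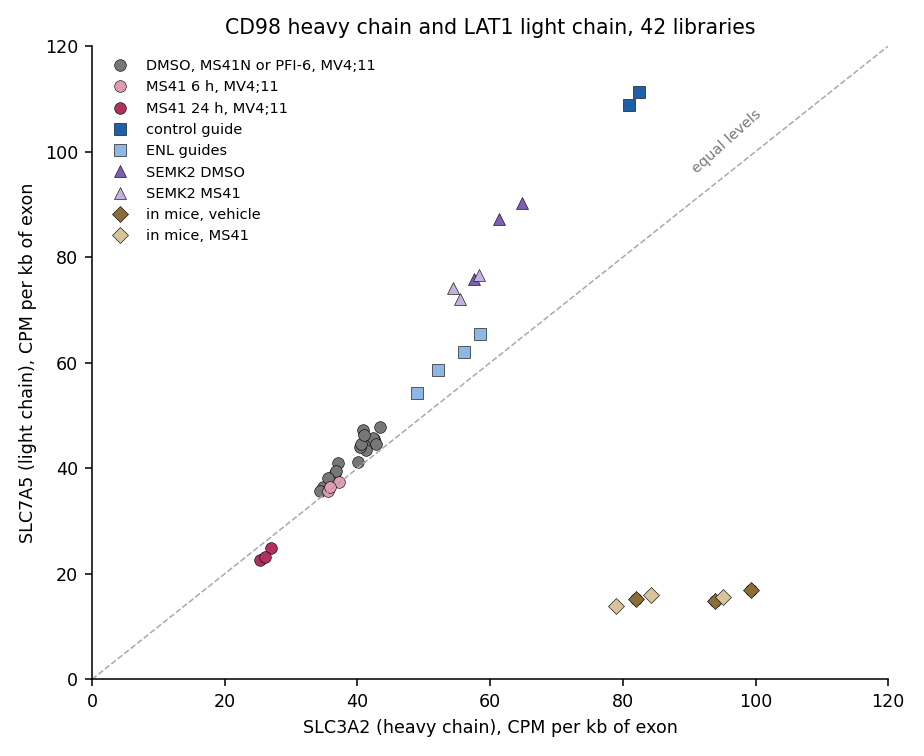
SLC7A5 light chain against SLC3A2 heavy chain, both in CPM per kb of exon, with 1 point for each of the 42 libraries and a dashed line of equal levels. The culture libraries lie near or above the line, MS41 at 24 h lies lowest along it, and the 6 in vivo libraries lie far below it with ratios of 0.158 to 0.189.

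Over all 15 groups SLC7A5 was highest under the control guide (505 ± 8.27 CPM, n = 2), followed by SEMK2 in DMSO and MS41, which overlap each other, and by both ENL guides, which also overlap. The DMSO, MS41N and PFI-6 groups of MV4;11 at 6 h and DMSO at 24 h came next and overlapped as neighbours, and MS41 at 24 h (108 ± 5.29) and the in vivo groups (71.8 ± 5.11 and 69.2 ± 5.01, overlapping) were lowest. SLC3A2 instead was highest in vivo (243 ± 23.6 CPM with vehicle) and lowest with MS41 at 24 h (69.4 ± 2.24). SLC7A11 was highest with MS41 at 24 h (25.9 ± 0.949) and 6 h (21.7 ± 0.336), then in SEMK2, and lowest under guide 1 (1.84 ± 0.0279, n = 2). Of the 14 pairs of neighbouring groups in each order, 7 overlapped for SLC7A5, 9 for SLC3A2 and 7 for SLC7A11. The compound, SEMK2, guide and in vivo libraries were counted separately, so these orders set levels side by side without a test. Mean SLC7A5 of MV4;11 in DMSO was 211 CPM at 6 h and 206 CPM at 24 h, beside 505 CPM under the control guide.

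Across the 24 MV4;11 compound libraries the 5 genes most like SLC7A5, by Pearson r of log2 CPM among 9278 genes of average log2 CPM of at least 3, were SLC5A6 (r = 0.991), a carrier of biotin and pantothenate, IFRD2 (0.986), RITA1 (0.986), RRP7A (0.985) and SRM (0.985), the spermidine synthase. Those most like SLC7A11 were ARHGEF3 (0.990), TIPARP (0.988), ARSB (0.985), GPR183 (0.985) and GAS7 (0.985). The libraries fall into 8 groups, so these values mainly order genes by group means and carry no p. With MS41 at 24 h SLC5A6 changed by -0.996 and SRM by -0.85, and GPR183 by 1.68 and TIPARP by 1.05.

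Other amino acid transporters did not move as a block. Of 42 further family members, 17 were tested in MV4;11, and with MS41 at 24 h 5 rose and 3 fell (median -0.04), against 21.4% and 22.9% of all genes. SLC43A2, a leucine carrier related to SLC43A1, rose by 1.11 (adjusted p = 2.57e-16) from 6.19 to 13.3 CPM, and with the guides by 0.64 (adjusted p = 0.00301). SLC7A7 (0.75), the lysosomal carriers PQLC2 (0.43) and CTNS (0.28) and SLC36A1 (0.24) also rose. SLC38A5, a glutamine carrier, fell by 1.19 (adjusted p = 9.84e-25) from 38.7 to 17.0 CPM and with the guides by 0.54 (adjusted p = 0.000461), and SLC36A4 fell by 0.49.

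The genes of amino acid supply and of the ATF4 stress response mostly fell beside the transporters: of 29 listed, 27 were tested, and with MS41 at 24 h 4 rose and 16 fell (median -0.31, beside 0.02 over all genes), against 21.4% and 22.9% of all genes. With the ENL guides 0 rose and 14 of 27 fell (median -0.45), against 4.98% of all genes that fell. GPT2, which makes alanine, fell by 1.38 with MS41 at 24 h and by 0.92 with the guides, PSAT1 of serine synthesis by 1.10 and 1.18, PYCR1 of proline synthesis by 1.33 and 0.62, and CBS of cysteine synthesis by 1.11 and 1.18. ATF4 itself, the factor that drives many of these genes, fell by 0.63 with MS41 at 24 h (adjusted p = 9.84e-24) and by 0.51 with the guides (adjusted p = 0.00116). CEBPB (0.37), EIF2AK3 (0.21) and EIF2AK4 (0.16) rose with MS41 at 24 h. In SEMK2 1 of 28 tested genes fell, against 0.518% of all genes, PSAT1 by 0.27. In vivo 0 of 27 were called by edgeR, against 0.0328% of all genes in either direction.

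The glutathione and NRF2 genes showed no common direction with MS41 at 24 h, with 10 of 28 higher and 10 lower (median -0.03), against 21.4% and 22.9% of all genes. Higher were FTH1 (0.61), BACH1 (0.45), a repressor of SLC7A11 and other NRF2 targets, GCLC (0.41), which makes the first step of glutathione synthesis, and the exporter ABCC1 (0.41). Lower were TFRC (-0.84), PRDX1 (-0.69), KEAP1 (-0.25) and TXNRD1 (-0.24). NFE2L2, which encodes NRF2, was at -0.01 (adjusted p = 0.818). MYC fell by 1.23 with MS41 at 6 h (adjusted p = 3.71e-32) and by 0.95 at 24 h (adjusted p = 4.09e-29), and with the guides it was not called (-0.23, adjusted p = 0.0689).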

How the data were processed

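RNA sequencing of 42 libraries was used. Gene counts were deposited by the authors for the culture and guide libraries. Per the submitters' processing notes, CASAVA 1.8, HISAT2 2.1.0 and HTSeq 0.11.3 were used with build hg38; the strand setting is not given in the sources used here. The deposited in vivo values were treated in the unit expected counts, because same-numbered vehicle and MS41 libraries average to nearly the same value (median SD of pair means 0.00207 on the log2 scale, against 0.0295 to 0.0481 for other matchings, 9508 genes). They were rounded to whole numbers.

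Counts were fitted in edgeR 4.0.16 (R 4.3.3, limma 3.58.1) with filterByExpr, TMM factors and the robust quasi-likelihood test, with Benjamini-Hochberg adjustment over all genes tested. The 24 MV4;11 compound libraries shared 1 fit; SEMK2, guide and in vivo tables had their own, the last with replicate number as a term. The script was tested on simulated data. Residual degrees of freedom were 16, 4, 3 and 2, and biological coefficients of variation 4.77%, 11.0%, 9.21% and 13.0%, in that order. Names came from GENCODE release 29, which matched 58676 of 58721 identifiers. Figures used Python 3.11.15 and matplotlib 3.10.9. The alternatives were RLE factors, no filter, a GC trend removed, DESeq2 1.42.0, a replicate block, only the groups compared and each library left out.

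Members and lists were chosen with earlier results of these data known. Named besides the members were the 5 largest called rises and falls with MS41 at 24 h among other transporters, the 4 largest in the supply and redox lists (average log2 CPM of at least 1), ATF4, NFE2L2, BACH1, KEAP1, MYC, MLLT1 and the 5 genes most like SLC7A5 and SLC7A11. Nothing says that libraries came from separate cultures, so p-values measure the spread between these libraries.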

Additional observations from a re-analysis of the deposited data

Results flagged for a closer look

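For 8 transporters the effect of MS41 at 24 h differed from that at 6 h in MV4;11 by the interaction term of edgeR's quasi-likelihood test. The difference on the log2 scale was 1.52 for SLC7A11 and 0.43 for SLC1A4. It was -0.60 for SLC7A5, -0.40 for SLC3A2, -0.50 for SLC7A1, -0.38 for SLC1A5, -0.30 for SLC43A1 and -2.79 for SLC6A9. SLC1A4 is the member whose called change had opposite signs at the 2 times. Its fall at 6 h was small (-0.08) and was not called without MS41 replicate 2. By the same test SLC1A4 was not called against MS41N at 6 h (-0.06, adjusted p = 0.123).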

How the results depend on the processing

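No called change of a transporter reversed under the alternatives run. Among 10 transporters, the number called moved for PFI-6 at 6 h from 1 to 0 with RLE factors or the GC trend removed and to 2 with no filter or only the groups compared (0 to 1 with 1 library left out). It moved for PFI-6 at 24 h from 5 to 2 with the GC trend removed, for MS41N at 24 h from 2 to 0 with it removed and to 1 with only the groups compared (0 to 1 with 1 library left out), for SEMK2 from 1 to 2 with no filter, the GC trend removed or the replicate block (0 to 6 with 1 library left out), and in vivo from 0 to 2 with no replicate block.

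Over all genes the number called moved with no filter from 466 to 723 (PFI-6, 6 h), 73 to 182 (MS41N, 6 h), 8 to 83 (MS41N, 24 h), 291 to 912 (SEMK2), 1853 to 2803 (guides), 1346 to 2304 (guide 1), 888 to 1835 (guide 2), 0 to 15 (guide 2 against 1) and 7 to 184 (in vivo). With DESeq2 these became 806 (PFI-6, 6 h), 164 (MS41N, 6 h), 76 (MS41N, 24 h), 763 (SEMK2), 1339 (guide 2), 1 (guide 2 against 1) and 69 (in vivo). With the GC trend removed PFI-6 at 24 h went from 2806 to 422, MS41N at 24 h to 0 and SEMK2 to 986. With only the groups compared the counts were 886 (PFI-6, 6 h), 119 (MS41N, 6 h) and 4 (MS41N, 24 h). The replicate block gave 662 (SEMK2), 3203 (guides), 2578 (guide 1), 1932 (guide 2) and 1 (guide 2 against 1), and no replicate block gave 523 in vivo.

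With each library left out in turn the counts ran from 126 to 309 (PFI-6, 6 h), 1381 to 2458 (PFI-6, 24 h), 12 to 64 (MS41N, 6 h), 0 to 9 (MS41N, 24 h), 100 to 2986 (SEMK2), 940 to 2621 (guides), 596 to 2191 (guide 1), 269 to 1874 (guide 2), 0 to 3 (guide 2 against 1) and 0 to 35 (in vivo). Of transporters called, guides and each guide alone gave 5 to 7. The share of calls that were higher moved from 61.9% to 46.6%, 45.0% and 50.3% in SEMK2 (no filter, GC trend removed, block), from 8.22% to 19.2% for MS41N at 6 h (no filter), from 50% to 25% for MS41N at 24 h (only the groups compared) and from 0% to 40.8%, 37.7% and 52.2% in vivo (no filter, DESeq2, no block). The cause was not tested.

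Same-numbered libraries correlated from -0.26 to 0.29 in the MV4;11 compound fit, -0.09 to 0.42 in SEMK2 and 0.01 to 0.67 with the guides. The labels do not say that a number marks a shared culture, so numbers were not taken to pair libraries in these fits. The higher correlations in SEMK2 and with the guides leave a pairing there possible. With the replicate block SLC7A5 in SEMK2 (adjusted p = 0.0155), SLC1A4 (0.0389) and SLC43A1 (0.0350) with the guides, SLC38A2 with guide 1 (0.0150) and guide 2 (0.0224) and SLC38A1 between MS41 and PFI-6 at 6 h (0.0495) were called; it changed no other transporter call. In MS41 at 24 h, PFI-6 at 24 h and MS41 against PFI-6 at 6 h, all 3 libraries correlated best with their own number. Depth limits SLC6A9 most, with 8 to 20 reads in MS41 at 24 h.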
